A study of Mus musculus with 24 samples.

Results

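The 9 genes described here encode enzymes, a transporter and signalling adaptors through which the liver makes, stores and releases glucose and responds to insulin. They are G6pc, Pck1, Fbp1, Pfkfb1, Slc2a2, Gys2, Pygl, Irs1 and Irs2, chosen by symbol from the 15160 genes in the deposited tables, and all 9 passed the filter on low counts. The liver mRNA of male mice was measured on a control diet (Con, 0.86% methionine) or a methionine-restricted diet (MR, 0.17% methionine), both without cysteine, in mice with and without NRF2 in hepatocytes. Dietary MR is known to improve glucose handling and insulin sensitivity in mice, and the study asked how far liver responses to MR need NRF2, the transcription factor encoded by Nfe2l2.

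The 24 mice formed 4 groups of 6. WT Con and WT MR mice were NRF2fl/fl, so that both copies of Nfe2l2 were flanked by loxP sites but left intact. NRF2 KO Con and NRF2 KO MR mice, labelled NRF2fl/(alb), carried the same floxed gene and a Cre recombinase driven by the albumin promoter, which removes exon 5 in hepatocytes and leaves the gene in the other cells of the liver. The diets began at 8 weeks of age. In the study's methods, 8 weeks on them were followed by indirect calorimetry and a return to home cages before livers were taken. The labels give an age of 5 months, and livers were taken after a 4 h fast. Each mouse gave 1 QuantSeq library, in which a transcript is read once near its 3′ end, and levels are given as CPM, counts scaled to the size of the library after TMM correction for its composition.

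The mice labelled WT_CON_7604 and WT_MR_7612 were left out, as the study did. There remained 5 mice in each WT group and 6 in each NRF2 KO group. The left-out mice's values are given for the genes where either lay outside the other mice of its group. Depth in the 22 mice ran from 6197291 to 22068338 counts with a median of 15019792. As a check of the labels, Nfe2l2 levels were compared, though where its reads fall relative to the excised part of exon 5 was not examined, so that they do not measure the deletion. They lay between 94.0 and 125 CPM in 9 of the 10 WT mice and between 202 and 339 CPM in the 12 NRF2 KO mice. The library labelled WT_CON_7607 had 324 CPM, within the range of the NRF2 KO mice and against its label. Its Gys2 level (90.7 CPM) and clock score (2.81), both described below, lay among the other WT Con mice and outside both NRF2 KO ranges. Gys2 was singled out with this library counted as WT Con, and the clock score does not measure NRF2, so that neither checks the label. Whether the label is right was not tested. Counts of called members and pathway genes were also made without this library, and some differed. Hepatocyte markers were present at a summed 90257 to 142098 CPM in every mouse, with 9 of the 10 listed markers in the file.

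In the fasted liver, glucose is made from lactate, glycerol and amino acids by gluconeogenesis and released from glycogen by glycogenolysis. Both routes end at glucose-6-phosphatase, and in the fed state glucose instead enters through the transporter GLUT2 and is stored as glycogen. Insulin, acting through its receptor and the substrates IRS1 and IRS2, restrains transcription of the gluconeogenic genes and of Irs2, largely by keeping forkhead (FoxO) factors out of the nucleus, whereas glucagon and cAMP raise it.

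To show the letters upstream of the genes that hold these responses, the 250 bases before the RefSeq start site (GRCm38.p6) are printed for G6pc and Irs2, the members with the largest fall and the largest rise, and for Pck1 and Irs1, their nearest functional counterparts. The windows are chr11:101367466-101367715 on the plus strand for G6pc, chr2:173152823-173153072 on the plus strand for Pck1, chr1:82291440-82291689 on the minus strand for Irs1 and chr8:11008930-11009179 on the minus strand for Irs2. Each is written 5′ to 3′ along the gene, and capitals mark matches to the 7 motifs that were searched.
G6pc: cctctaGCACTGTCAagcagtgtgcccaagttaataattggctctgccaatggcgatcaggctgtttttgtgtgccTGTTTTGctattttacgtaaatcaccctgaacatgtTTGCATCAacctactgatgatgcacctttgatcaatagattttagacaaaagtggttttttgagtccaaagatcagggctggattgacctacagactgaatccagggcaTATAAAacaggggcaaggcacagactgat
Pck1: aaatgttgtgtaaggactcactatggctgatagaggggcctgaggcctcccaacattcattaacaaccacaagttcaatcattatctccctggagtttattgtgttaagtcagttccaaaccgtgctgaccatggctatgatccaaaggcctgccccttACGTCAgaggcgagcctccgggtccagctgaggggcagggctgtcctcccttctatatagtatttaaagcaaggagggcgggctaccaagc
Irs1: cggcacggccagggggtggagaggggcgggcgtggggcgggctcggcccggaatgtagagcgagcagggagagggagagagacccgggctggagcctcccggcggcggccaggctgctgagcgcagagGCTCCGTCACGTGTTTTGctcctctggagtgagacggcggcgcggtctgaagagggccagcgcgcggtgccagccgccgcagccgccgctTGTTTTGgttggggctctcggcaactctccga
Irs2: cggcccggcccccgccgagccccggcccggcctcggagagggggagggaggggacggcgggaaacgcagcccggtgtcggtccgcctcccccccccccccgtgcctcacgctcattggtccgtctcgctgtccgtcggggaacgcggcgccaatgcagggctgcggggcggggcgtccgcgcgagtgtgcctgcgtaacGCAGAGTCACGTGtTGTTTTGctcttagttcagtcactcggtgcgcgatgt
The motifs were TGTTTTG, a forkhead insulin response motif, held by 5.56% of 32851 RefSeq windows of this length, the forkhead consensus TGTTTAC (3.17%), the E-box CACGTG (6.02%), the cAMP response half-site TGACGT (6.47%), the C/EBP-ATF composite motif TGATGCAA (0.791%), the antioxidant response element core TGACNNNGC (10.2%) and the TATA box TATAAA (12.4%), each on both strands. The G6pc window held TGTTTTG at -174 to -168 from the start site, TGATGCAA on the reverse strand at -138 to -131, TGACNNNGC on the reverse strand at -244 to -236 and TATAAA at -29 to -24. In Pck1 the single match was TGACGT on the reverse strand at -91 to -86. The 2 substrate genes shared 3 motifs: TGTTTTG lay at -37 to -31 in Irs2 and at -111 to -105 and -32 to -26 in Irs1, CACGTG at -44 to -39 in Irs2 and -115 to -110 in Irs1, and reverse-strand TGACNNNGC at -51 to -43 in Irs2 and -122 to -114 in Irs1. CACGTG and TGACNNNGC share 2 bases in both genes, and in Irs1 TGTTTTG and CACGTG share 2 bases as well. Of the 9 genes, 8 had a RefSeq window and Gys2 had none. A match describes the letters and says nothing of binding.

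MR changed 3 of the 9 genes in NRF2 KO mice: G6pc and Fbp1 fell and Irs2 rose. This share stands beside 12.6% of the 13336 genes tested that were called in that comparison, at a Benjamini-Hochberg adjusted p under 0.05 in edgeR's quasi-likelihood test. In WT mice edgeR called 0 of the 9 genes for MR, where the background was 13.8%. There 2 of 9 had an unadjusted edgeR p under 0.05, as did 28.3% of all genes, and DESeq2 called 1, G6pc, beside 14.1% of the 15160 genes it fitted. NRF2 KO changed 1 of the 9 on Con, Gys2, beside a background of 2.07%. On MR edgeR called 0 of 9 against a background of 1.93%, with 3 at an unadjusted edgeR p under 0.05 (13.9% of all genes) and 2 called by DESeq2 (3.27% of all genes). The median log2 fold change of the 9 genes on MR was 0.23 within WT and -0.09 within NRF2 KO, and that of NRF2 KO against WT was 0.23 on Con and 0.05 on MR, and over all genes tested it lay within 0.01 of 0 in each comparison. When the library labelled WT_CON_7607 was dropped, edgeR again called 0 of 9 for MR within WT and 0 by genotype on MR, 1 by genotype on Con, and 4 for MR within NRF2 KO, the added gene being Pygl. In whole liver, fewer cells of a type and less RNA per cell cannot be told apart.

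**Figure D1:**
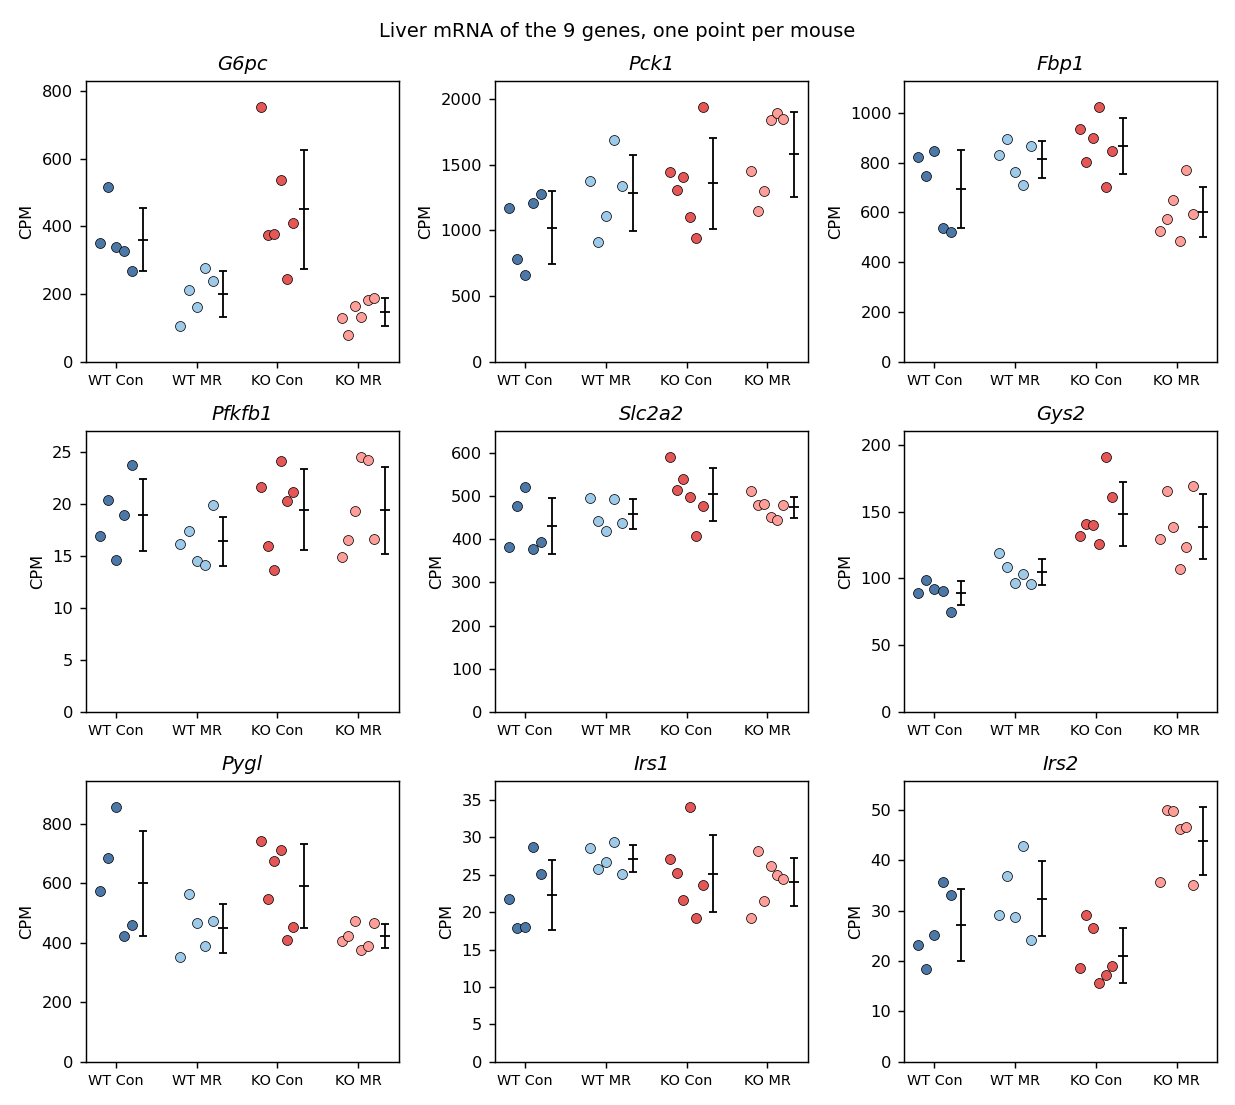
Level of each of the 9 genes in CPM (vertical axes, from 0) in the 22 mice, 1 point per mouse, with the mean and SD of each group as a bar beside the points. G6pc separates NRF2 KO Con (246 to 755 CPM) from NRF2 KO MR (78.5 to 188 CPM), Irs2 separates the same groups the other way, and Gys2 separates WT Con (74.9 to 98.5 CPM) from NRF2 KO Con (126 to 191 CPM).

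G6pc (ENSMUSG00000078650, chr11:101367561-101377903, plus strand, GENCODE M21 on GRCm38) encodes the catalytic subunit of glucose-6-phosphatase, which releases free glucose. It measured 352, 516, 338, 328 and 268 CPM in the WT Con mice and 105, 213, 163, 278 and 239 CPM in the WT MR mice. In NRF2 KO Con mice it ran from 246 through a median of 394 to 755 CPM, and in NRF2 KO MR mice from 78.5 through 148 to 188 CPM. All 6 NRF2 KO MR mice lay below all 6 NRF2 KO Con mice, whereas in WT a single pair of mice overlapped, the highest on MR and the lowest on Con. Lack of overlap in that direction was seen for 2.83% of genes tested. The log2 fold change for MR in NRF2 KO was -1.63 (SE 0.27, edgeR adjusted p = 0.00079), or 0.323 of the Con level, and the exact permutation test over mice gave p = 0.0022, the smallest that 6 against 6 mice allow. In WT it was -0.86 (SE 0.30, edgeR adjusted p = 0.060), a call not reached with edgeR but reached with DESeq2 (adjusted p = 0.033), and the adjusted p ran from 0.033 to 0.49 over the alternative settings. Scaled with all 24 mice, the left-out mice had 218 CPM (WT_CON_7604) and 225 CPM (WT_MR_7612), so that with them the WT groups overlapped further.

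Pck1 (ENSMUSG00000027513, chr2:173153048-173159273, plus strand) encodes cytosolic phosphoenolpyruvate carboxykinase, which with G6pc brackets the gluconeogenic route. WT Con mice had 1173, 784, 656, 1209 and 1275 CPM and WT MR mice 1379, 913, 1111, 1684 and 1338 CPM. The range was 941 to 1943 CPM (median 1357) in NRF2 KO Con and 1146 to 1896 CPM (median 1645) in NRF2 KO MR. The groups overlapped in every comparison. The log2 fold change for MR was 0.33 (SE 0.21, 95% interval -0.09 to 0.76) in WT and 0.22 (SE 0.19, 95% interval -0.17 to 0.61) in NRF2 KO, with edgeR adjusted p of 0.31 and 0.50. NRF2 KO against WT gave 0.41 on Con and 0.30 on MR, and neither was called (edgeR adjusted p = 0.35 and 0.56).

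Fbp1 (ENSMUSG00000069805, chr13:62864753-62888282, minus strand) encodes the liver fructose-1,6-bisphosphatase, the step between these enzymes. In NRF2 KO mice it ran from 701 through 874 to 1027 CPM on Con and from 487 through 584 to 772 CPM on MR. Only the highest MR mouse reached into the Con range. The log2 fold change was -0.53 (SE 0.13, edgeR adjusted p = 0.0072, exact permutation p = 0.0043), or 0.692 of the Con level. WT Con mice had 823, 745, 848, 537 and 520 CPM and WT MR mice 831, 896, 765, 711 and 866 CPM, a log2 fold change of 0.23 (SE 0.14, edgeR adjusted p = 0.29). The library labelled WT_CON_7607 was 1 of the 2 low WT Con values, and leaving it out gave 0.15 for WT and -0.53 for NRF2 KO. NRF2 KO MR mice were lower than WT MR mice by a log2 fold change of -0.44 (SE 0.13) that was not called by edgeR (adjusted p = 0.083) and was called by DESeq2 (adjusted p = 0.042).

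Pfkfb1 (ENSMUSG00000025271, chrX:150588229-150643878, plus strand) encodes the liver form of the bifunctional enzyme that sets fructose-2,6-bisphosphate, the switch between glycolysis and gluconeogenesis. It was read at 17.0, 20.5, 14.7, 19.0 and 23.8 CPM in WT Con and 16.1, 17.5, 14.5, 14.2 and 19.9 CPM in WT MR. NRF2 KO mice ran from 13.7 to 24.1 CPM (median 20.8) on Con and from 14.9 to 24.6 CPM (median 18.0) on MR. All 4 groups overlapped, and the lowest edgeR adjusted p of the 4 comparisons between them was 0.45. The 95% interval of the log2 fold change was -0.54 to 0.13 for MR in WT and -0.30 to 0.30 for MR in NRF2 KO. Scaled with all 24 mice, both left-out mice were low, at 8.67 and 10.6 CPM.

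Slc2a2 (ENSMUSG00000027690, chr3:28697903-28731359, plus strand) encodes GLUT2, the transporter that carries glucose in both directions across the hepatocyte membrane. Of the 9 genes it varied least between mice of a group. The values were 382, 477, 522, 378 and 393 CPM in WT Con, 496, 442, 419, 494 and 439 CPM in WT MR, 409 to 592 CPM (median 506) in NRF2 KO Con and 445 to 512 CPM (median 479) in NRF2 KO MR. MR gave a log2 fold change of 0.09 (95% interval -0.11 to 0.29) in WT and -0.09 (-0.27 to 0.10) in NRF2 KO, and the difference of NRF2 KO on Con was 0.23 (SE 0.09, edgeR adjusted p = 0.24). A left-out mouse, WT_CON_7604, was lower than all others at 270.2 CPM. The antisense gene 1700112D23Rik covers the 3′ end of Slc2a2, and since it is not given in the sources used here whether counting used strand, reads of both cannot be told apart.

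Gys2 (ENSMUSG00000030244, chr6:142422613-142473109, minus strand) encodes liver glycogen synthase and was the member that differed by genotype. The WT Con mice had 88.8, 98.5, 92.2, 90.7 and 74.9 CPM, and the NRF2 KO Con mice ran from 126 through 140.2 to 191 CPM. Every NRF2 KO Con mouse lay above every WT Con mouse, as was so in that direction for 0.945% of genes tested. The log2 fold change was 0.74 (SE 0.12, edgeR adjusted p = 0.00074), a fold of 1.67, and the exact permutation p of 0.0043 is the smallest that 6 against 5 mice allow. On MR the WT mice had 119, 108, 96.5, 104 and 96.0 CPM and the NRF2 KO mice 107 to 169 CPM (median 134), with a log2 fold change of 0.41 (SE 0.12) that edgeR did not call (adjusted p = 0.064) and DESeq2 did (adjusted p = 0.029). MR itself gave 0.24 (SE 0.12, edgeR adjusted p = 0.20) in WT and -0.10 (SE 0.11, edgeR adjusted p = 0.62) in NRF2 KO. With all 24 mice MR in WT gave 0.26 (edgeR adjusted p = 0.11, exact permutation p = 0.0065). Leaving out the library labelled WT_CON_7607 gave a genotype difference on Con of 0.75 (edgeR adjusted p = 0.0010). The call was lost with the circadian clock score, described below, as a covariate, which gave 0.63 (SE 0.24, edgeR adjusted p = 0.33). With it edgeR called 0 of all genes tested in that comparison, against 276 without it. The score did not overlap between WT and NRF2 KO mice on Con, nor on MR. Clock and genotype therefore cannot be told apart on either diet.

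Pygl (ENSMUSG00000021069, chr12:70190811-70231488, minus strand) encodes liver glycogen phosphorylase, which breaks glycogen down. Its MR differences had the same sign in both genotypes, and edgeR called neither. WT Con mice had 575, 686, 858, 422 and 461 CPM, WT MR mice 354, 564, 466, 388 and 472 CPM. NRF2 KO mice ran from 411 to 744 CPM (median 612) on Con and from 375 to 475 CPM (median 414) on MR, so that the groups overlapped in both genotypes. The log2 fold change was -0.42 (SE 0.18, edgeR adjusted p = 0.13) in WT and -0.48 (SE 0.16, edgeR adjusted p = 0.055) in NRF2 KO. The NRF2 KO value lay close to the threshold, with adjusted p between 0.020 and 0.11 over the alternative settings and 0.041 without the library labelled WT_CON_7607. On the scale of all 24 mice, the left-out mice had 319 CPM (WT_CON_7604) and 332 CPM (WT_MR_7612), below the others of their groups.

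Irs2 (ENSMUSG00000038894, chr8:10984681-11008458, minus strand) encodes the insulin receptor substrate whose liver mRNA is strongly repressed by insulin and rises on fasting. In NRF2 KO Con mice it ran from 15.5 through 18.9 to 29.1 CPM, and in NRF2 KO MR mice from 35.1 through 46.4 to 49.9 CPM. All 6 MR mice lay above all 6 Con mice, as did 2.62% of genes tested in that direction. The log2 fold change was 1.06 (SE 0.18, edgeR adjusted p = 0.00060), a fold of 2.08, with the smallest exact permutation p that 6 against 6 mice allow, 0.0022. WT Con mice had 23.2, 18.4, 25.2, 35.6 and 33.1 CPM and WT MR mice 29.1, 36.8, 28.8, 42.8 and 24.1 CPM. These WT groups overlapped widely, with a log2 fold change of 0.24 (SE 0.19, 95% interval -0.15 to 0.64, edgeR adjusted p = 0.44). The highest WT Con value was that of the library labelled WT_CON_7607, and without it the WT value was 0.36 (edgeR adjusted p = 0.26). On the scale of all 24 mice, the left-out WT_MR_7612 had 47.0 CPM. This was above the other WT MR mice and within the range of the NRF2 KO MR mice.

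Irs1 (ENSMUSG00000055980, chr1:82233101-82291416, minus strand) encodes the other main substrate of the insulin receptor in liver. Its values were 21.8, 17.9, 18.0, 28.7 and 25.1 CPM in WT Con, 28.5, 25.8, 26.7, 29.4 and 25.1 CPM in WT MR, 19.2 to 34.1 CPM (median 24.4) in NRF2 KO Con and 19.2 to 28.1 CPM (median 24.7) in NRF2 KO MR. In NRF2 KO mice, where Irs2 rose on MR, the log2 fold change of Irs1 was -0.07 (SE 0.13, 95% interval -0.33 to 0.19). In WT mice the log2 fold change was 0.28 (SE 0.14, edgeR adjusted p = 0.19), and the MR mice, between 25.1 and 29.4 CPM, had a range that 2 of the 5 Con mice reached, 1 of them the library labelled WT_CON_7607. The left-out mice, scaled with all 24, had 16.7 CPM (WT_CON_7604) and 19.1 CPM (WT_MR_7612), below the others of their groups.

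**Figure D2:**
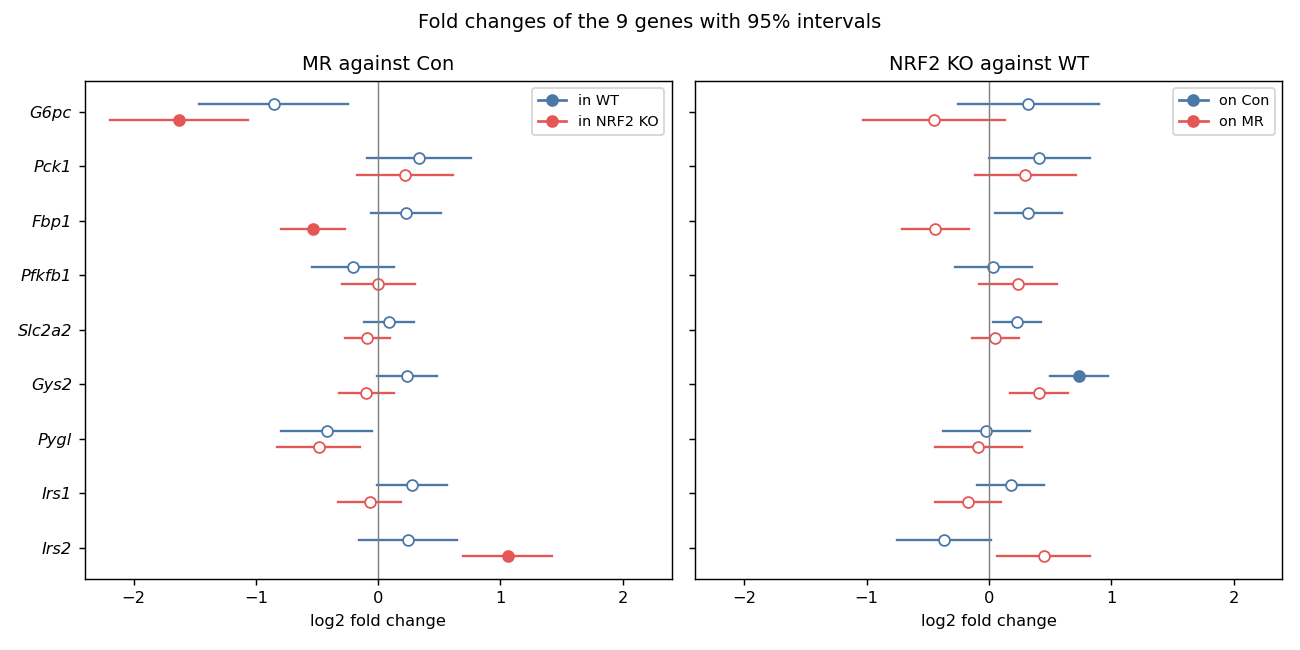
Log2 fold changes of the 9 genes from edgeR (horizontal axes) with 95% intervals as lines, for MR against Con in each genotype (left) and NRF2 KO against WT on each diet (right), where filled points are genes called over all 13336 tested. The filled points are G6pc (-1.63), Fbp1 (-0.53) and Irs2 (1.06) for MR in NRF2 KO and Gys2 (0.74) for NRF2 KO on Con.

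Whether MR acted differently in the genotypes was tested by the interaction term, the MR effect in NRF2 KO minus that in WT. By edgeR 0 of the 9 genes were called, beside 0.045% of all genes, with 2 at an unadjusted edgeR p under 0.05 (7.56% of all genes) and 1 called by DESeq2 (0.237% of all genes). That gene was Fbp1, whose interaction was -0.76 (SE 0.19) with an edgeR adjusted p of 0.21 and a DESeq2 adjusted p of 0.040. The interaction was 0.81 for Irs2 (SE 0.26, edgeR adjusted p = 0.42) and -0.77 for G6pc (SE 0.40, edgeR adjusted p = 0.69). The calls of G6pc and Irs2 in NRF2 KO and not in WT are therefore not shown to differ between the genotypes.

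Of the other genes of these pathways, 123 in 5 lists were tested, and for MR in WT 18 of them (14.6%) were called, 15 higher and 3 lower, close to the 13.8% of all genes. For MR in NRF2 KO 23 were called (18.7%, beside 12.6% of all genes), 8 higher and 15 lower. NRF2 KO changed 6 on Con (4.88%, beside 2.07% of all genes) and 2 on MR (1.63%, beside 1.93%). With all 24 mice 16 of the 18 WT calls and 14 of the 23 NRF2 KO calls remained, with scaling by library size only 16 and 13, and when the library labelled WT_CON_7607 was dropped 11 and 23. The interaction gave 0 calls in edgeR and in DESeq2, with 14 genes at an unadjusted edgeR p under 0.05, as were 7.56% of all genes.

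Among other gluconeogenic steps 3 of 15 genes rose on MR in WT, and 2 rose and 3 fell in NRF2 KO. Pck2, the mitochondrial form of phosphoenolpyruvate carboxykinase and a known target of the amino acid response factor ATF4, rose in both genotypes. It went from 3.28 ± 1.51 to 16.2 ± 5.17 CPM (SD, n = 5) in WT and from 2.50 ± 1.00 to 13.5 ± 3.80 CPM (SD, n = 6) in NRF2 KO, log2 fold changes of 2.27 (SE 0.31) and 2.48 (SE 0.30). Malate dehydrogenase Mdh2 also rose in both (0.27 and 0.25), and the oxoglutarate carrier Slc25a11 rose in WT (0.24), a call lost without the library labelled WT_CON_7607 (edgeR adjusted p = 0.10). Lactate dehydrogenase Ldha (-0.52), aspartate aminotransferase Got1 (-0.44) and glycerol-3-phosphate dehydrogenase Gpd1 (-0.34), enzymes that feed carbon or reducing equivalents into the route, fell in NRF2 KO.

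Of 17 regulators of gluconeogenesis 4 rose on MR in WT: the AMP-activated kinase subunit Prkaa2 (0.61), the transcription factors Klf15 (0.50) and Foxo1 (0.31), and the glucagon receptor Gcgr (0.30). In NRF2 KO 2 of them fell, Cebpa (-0.47) and Creb3l3 (-0.33), transcription factors of hepatocyte metabolism and of the fasting response. NRF2 KO on Con was higher than WT Con in Klf15 (0.51) and Foxo1 (0.50), and on MR it was lower in Prkaa2 (-0.36). The WT calls of Foxo1 and Gcgr were lost without the library labelled WT_CON_7607 (edgeR adjusted p = 0.11 and 0.051), as was that of Klf15 by genotype (0.057).

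In glucose uptake and glycolysis 3 of 33 genes rose and 2 fell on MR in WT, and 2 rose and 5 fell in NRF2 KO. Liver pyruvate kinase Pklr (-0.86), ketohexokinase Khk (-0.70) and Pfkfb3 (-0.60) were among those that fell in NRF2 KO, the first 2 not with all 24 mice (edgeR adjusted p = 0.077 and 0.079). Aldolase Aldoa rose in both genotypes (0.63 in WT and 0.42 in NRF2 KO). In WT the pyruvate dehydrogenase subunit Pdhb rose (0.35), while Hk2 (-0.56) and Pkm (-0.53), enzymes typical of cells other than hepatocytes, fell. The calls of Pdhb and Hk2 were lost without the library labelled WT_CON_7607 (edgeR adjusted p = 0.10 and 0.070). That of Hk2 was also lost with all 24 mice (edgeR adjusted p = 0.16) and with scaling by library size only (edgeR adjusted p = 0.10). On Con, NRF2 KO was higher in Pfkfb3 (0.97) and lower in the transporter gene Slc2a1 (-0.65).

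For glycogen metabolism 4 of 23 genes rose on MR in WT, and 2 rose and 3 fell in NRF2 KO. Among the WT rises were Stbd1 (0.63), which tethers glycogen to membranes, the phosphatase targeting subunit Ppp1r3e (0.52) and lysosomal acid glucosidase Gaa (0.38), and Ppp1r3e was not called without the library labelled WT_CON_7607 (edgeR adjusted p = 0.083). In NRF2 KO Gys1 (0.77) and Gaa (0.48) rose and Epm2a (-0.69), Ugp2 (-0.57) and the branching enzyme Gbe1 (-0.35) fell, the falls being called in the 22 mice and not in all 24 (edgeR adjusted p = 0.079, 0.059 and 0.060). NRF2 KO was higher in Stbd1 on Con (0.58, edgeR adjusted p = 0.10 with all 24 mice) and lower in Gbe1 on MR (-0.59).

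Within insulin signalling 2 of 36 genes rose and 1 fell on MR in WT, and 2 rose and 2 fell in NRF2 KO. The pseudokinase gene Trib3, another ATF4 target whose product binds AKT, rose from 17.2 ± 4.02 to 31.0 ± 5.63 CPM in WT (SD, n = 5) and from 9.52 ± 2.60 to 22.2 ± 3.94 CPM in NRF2 KO (SD, n = 6). Its calls in both genotypes were lost with all 24 mice, where the log2 fold change was 0.47 in WT (edgeR adjusted p = 0.48) and 1.23 in NRF2 KO (edgeR adjusted p = 0.074). The insulin receptor Insr (0.29) rose in NRF2 KO, where the phosphatase Ptprf (-0.26, adjusted p = 0.15 with all 24 mice in edgeR) and the PI3-kinase subunit Pik3r3 (-0.88) fell, and in WT Foxo1 rose and the adaptor Shc1 fell (-0.33). On Con, NRF2 KO was lower in Trib3 (-0.86, and -1.62 with all 24 mice) and higher in Foxo1 (0.50).

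**Figure D3:**
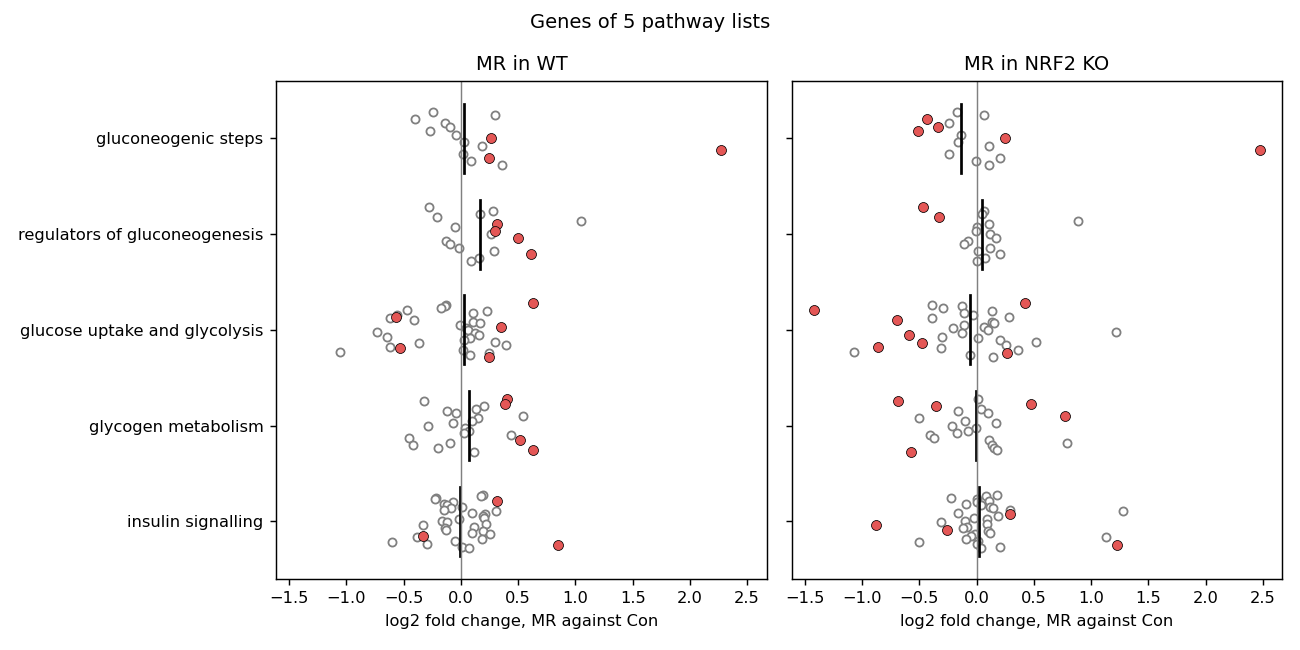
Log2 fold change for MR against Con (horizontal axes) of each tested gene in 5 pathway lists, in WT (left) and NRF2 KO (right), with called genes in red, the others open and the median of each list as a black bar. The list medians lie between -0.14 and 0.17, and Pck2 stands apart at 2.27 and 2.48 in the top row.

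Values that moved with the groups are given here for the members they touch. The circadian clock score, the mean log2 CPM of 8 clock genes that peak in the evening minus that of 4 that peak in the morning, ran from 1.33 to 3.45 in WT Con, 3.04 to 4.49 in WT MR, 4.45 to 5.00 in NRF2 KO Con and 4.68 to 5.19 in NRF2 KO MR. It separated WT Con from NRF2 KO Con without overlap, and WT MR from NRF2 KO MR as well. Clock and genotype therefore cannot be told apart on either diet. This limit also holds for the Gys2 and Fbp1 differences on MR that DESeq2 called. The score overlapped between the NRF2 KO diets, and with it as a covariate the MR values there were -1.60 for G6pc (edgeR adjusted p = 0.0014), -0.51 for Fbp1 (adjusted p = 0.0098) and 1.02 for Irs2 (adjusted p = 0.00081). Over all genes tested, the covariate took the edgeR calls from 1843 to 937 for MR in WT and from 276 to 0 for NRF2 KO on Con. For NRF2 KO on MR it took them from 258 to 111. Of the pathway genes, it left 8 of the 18 calls for MR in WT. The 6 called for NRF2 KO on Con had edgeR adjusted p from 0.26 to 0.88 with it. Their log2 fold changes with the covariate were 0.63 for Foxo1, 0.40 for Klf15, 0.18 for Pfkfb3, 0.15 for Stbd1, -0.48 for Slc2a1 and -1.19 for Trib3. Both pathway genes called for NRF2 KO on MR also lost their calls with the covariate. The values were -0.31 for Prkaa2 (edgeR adjusted p = 0.17) and -0.54 for Gbe1 (edgeR adjusted p = 0.088).

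**Figure D4:**
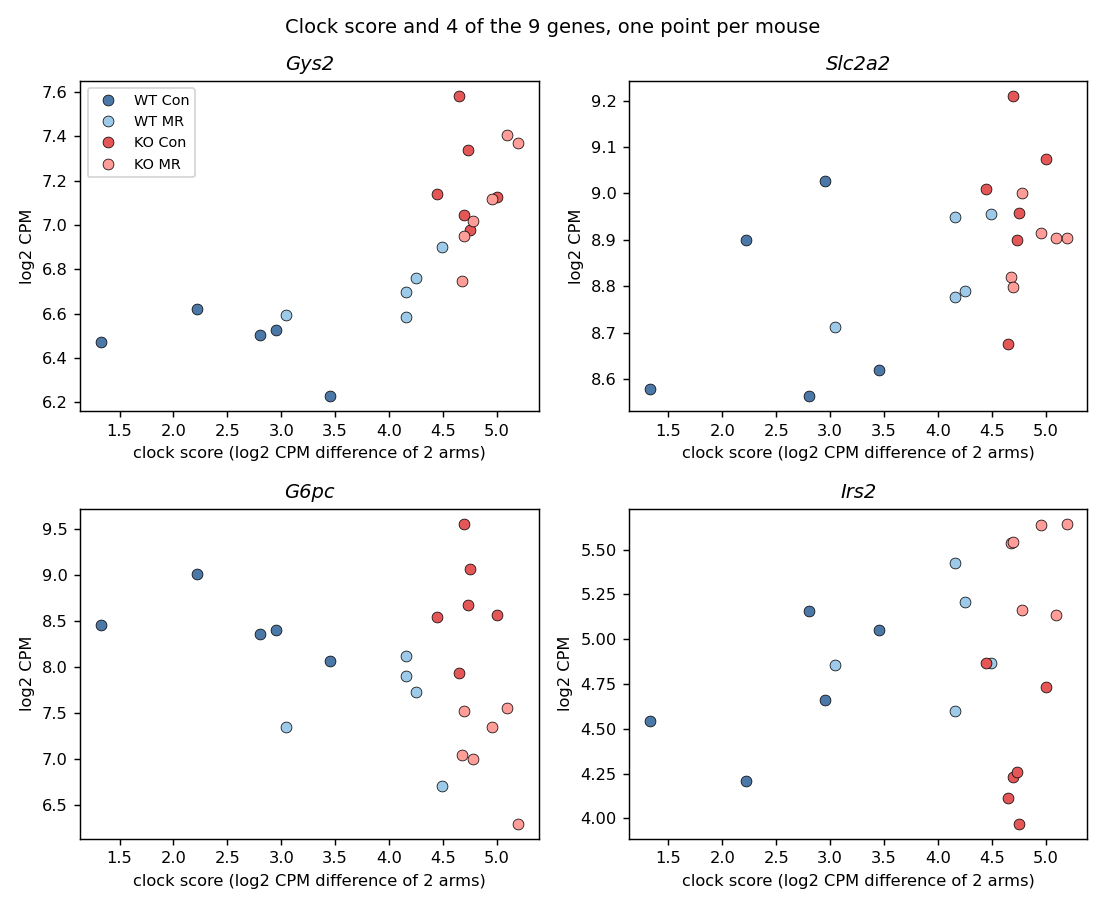
Clock score (horizontal axes, a difference of mean log2 CPM) against the log2 CPM of Gys2, Slc2a2, G6pc and Irs2 (vertical axes, not starting at 0), 1 point per mouse for the 22 mice coloured by group. WT Con mice lie at 1.33 to 3.45 and NRF2 KO Con mice at 4.45 to 5.00, and within the NRF2 KO groups G6pc and Irs2 separate by diet at overlapping scores.

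Summed marker levels of 6 cell types or tissues had lower medians on MR than on Con in both genotypes, those of hepatocytes, Kupffer cells, stellate cells, bile duct cells, adipose tissue and pancreatic acinar cells. Hepatocyte markers ran from 95172 to 126220 CPM in WT Con, 90257 to 105424 in WT MR, 123675 to 142098 in NRF2 KO Con and 110805 to 130645 in NRF2 KO MR, and for MR 1 of 9 tested was called lower in WT and 2 of 9 in NRF2 KO, beside 6.91% and 6.34% of all genes. The same ranges were 245 to 343, 196 to 224, 202 to 310 and 180 to 256 CPM for Kupffer cells, with 3 and 1 of 7 called lower, and the diets did not overlap in WT. Stellate cell markers ran from 508 to 784, 427 to 533, 586 to 657 and 491 to 600 CPM, with 6 and 4 of 8 called lower. Bile duct markers ran from 49.1 to 74.7, 21.2 to 28.4, 31.9 to 53.4 and 20.8 to 29.2 CPM, with 4 and 1 of 5 called lower, and the diets did not overlap in either genotype. Adipose markers ran from 19.7 to 30.3, 12.7 to 14.2, 14.9 to 31.5 and 11.7 to 19.6 CPM, with 1 and 0 of 3 called lower, and the diets did not overlap in WT. Acinar markers, of which 2 of 6 were at 0 in every WT Con mouse, ran from 21.8 to 64.7, 18.8 to 25.7, 32.6 to 87.6 and 18.1 to 70.2 CPM, and their 1 tested gene was called lower in NRF2 KO only. Endothelial markers ran from 277 to 342, 318 to 340, 297 to 349 and 342 to 378 CPM, with 1 of 7 called higher in NRF2 KO and 0 of 7 called in WT. Over all 22 mice the summed level was 2.29 to 6.41 CPM for skeletal muscle, 1080 to 3710 for red blood cells and 2.21 to 5.48 for lymphocytes, with overlapping ranges in the 4 groups, and of these genes 1 of 5 for red blood cells was called lower on MR in each genotype. The part of cell makeup in the members' values was not tested.

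The 9 genes differed in how much they varied among mice of 1 group. The pooled within-group SD of log2 CPM was 0.488 for G6pc, higher than in 87.5% of genes tested, and 0.152 for Slc2a2, higher than in 22.7%, beside a median of 0.230 over all genes. Over the 22 mice the gene whose log2 CPM was most like that of Pygl was Khk (Pearson r = 0.962), followed among these pairs by Dpy19l1 for G6pc (0.935), Hlf, a clock output gene that is part of the clock score, for Slc2a2 (0.871), Btbd2 for Fbp1 (0.839), Coq8b for Irs2 (0.833), ENSMUSG00000108435 for Gys2 (0.830), Sgms1 for Pck1 (0.807), ENSMUSG00000045746 for Irs1 (0.737) and Acacb for Pfkfb1 (0.699). These are descriptions over mice that share group differences and library scaling. With the group means removed, r was 0.962 for Khk with Pygl, 0.787 for Dpy19l1 with G6pc, 0.629 for Coq8b with Irs2 and 0.482 for the gene most like Gys2.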

How the data were processed

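QuantSeq 3′ libraries were made from the liver RNA of 24 mice, with 1 library a mouse. The authors deposited raw counts of reads per gene, made with the commercial pipeline of the kit's maker, and the submitters' processing notes name the builds GRCm38 and mm10, R 3.4.3 and DESeq2 1.18.1. The aligner's settings and the strand setting of the counting are not given in the sources used here. The authors also deposited a normalized signal, the counts divided by a DESeq2 size factor per mouse, which was recovered from the counts with a largest relative deviation of 5.1e-15 and was used for an alternative.

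The counts were fitted in R 4.3.3 with edgeR 4.0.16 (TMM, filter by expression, robust quasi-likelihood F-tests) as 1 model of 4 groups and 22 mice. Of 15160 genes 13336 were tested and 1824 were too low, and p-values were adjusted over all genes tested by Benjamini-Hochberg and called under 0.05. A prior count of 2 was used for log2 CPM. Exact permutation tests were two-sided, from scipy 1.17.1, unadjusted, and of single genes. No batch is given in the labels, and no library pair agreed closely enough to be 1 sample. Intervals are 95% intervals of the model and the counting precision of each library is set by 6197291 to 22068338 counts.

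The 9 members, the 5 pathway lists, 10 marker lists and the clock score were chosen with earlier results of these data known. Named genes are the members, up to 4 called genes with the largest change per pathway list and comparison, the gene most like each member, and Nfe2l2. A few genes that this rule would name are left out of the text. The marker genes Tf, Clec4f, Cd79a, Plin1, Lep, Cela2a and Amy2a5 were not analysed here. Alternatives were other scalings and filters, DESeq2 1.42.0, limma 3.58.1 on log2 of the normalized signal plus 1, fits restricted to the groups compared, the 24 mice together (plain or with quality weights), the clock score as a covariate and each mouse left out. Figures were drawn with matplotlib 3.10.9.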

Additional observations from a re-analysis of the deposited data

How the results depend on the processing

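Of the members' log2 fold changes under alternatives other than leaving out a mouse, 410 kept direction and side of the threshold, 14 became called, 1 lost its call and 16 changed sign. The 4 called values were called in all 22 fits that left out a mouse, with ranges of -1.75 to -1.41 for G6pc, -0.62 to -0.48 for Fbp1 and 0.99 to 1.17 for Irs2 (MR in NRF2 KO) and 0.65 to 0.78 for Gys2 (NRF2 KO on Con).

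Members called for MR in WT numbered 1 with library size scaling only (Fbp1), with at least 10 counts in every mouse (G6pc) and with DESeq2 (G6pc), and 0 to 1 with a mouse left out, where it was G6pc without WT_MR_7615, KO_CON_7617, KO_CON_7622 or KO_MR_7627. Members called for NRF2 KO on MR numbered 2 (Fbp1 and Gys2) with DESeq2, only the groups compared and quality weights, and 0 to 1 with a mouse left out. The interaction gave 1 member (Fbp1) with DESeq2. With the clock covariate 0 members were called for NRF2 KO on Con.

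Genes called for MR in WT numbered 937 with the clock covariate, and for MR in NRF2 KO 2785 with library size scaling and 2693 with quality weights. For NRF2 KO on Con they numbered 444 with DESeq2, 99 with only the groups compared, 0 with the clock covariate and 181 to 314 with a mouse left out. For NRF2 KO on MR they numbered 496 with DESeq2, 600 with only the groups compared, 604 with quality weights and 111 with the clock covariate, and for the interaction 36 with DESeq2, 1 with the clock covariate and 3 to 12 with a mouse left out. Library size scaling moved the median of all genes by 0.16 for MR in NRF2 KO and raised the share of calls that were higher from 49.6% to 86.1%, and from 50.0% to 73.2% for MR in WT.

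Signs changed only in values that were not called. With library size scaling, MR in NRF2 KO gave 0.069 for Slc2a2, 0.051 for Gys2 and 0.10 for Irs1, and Pfkfb1 gave -0.0096 for NRF2 KO on Con. With the clock covariate, MR in WT gave -0.035 for Slc2a2 and -0.047 for Irs2, NRF2 KO on Con gave -0.10 for Pfkfb1, 0.013 for Pygl and -0.0054 for Irs1, and NRF2 KO on MR gave -0.021 for Slc2a2. Pfkfb1 for MR in NRF2 KO was -0.0042 with the strict filter, -0.0028 with limma, -0.00042 with only the groups compared and -0.0092 with the clock covariate. Pygl for NRF2 KO on Con was 0.089 with all 24 mice and 0.15 with quality weights. With a mouse left out, MR in NRF2 KO ranged from -0.13 to 0.039 for Irs1 and -0.086 to 0.072 for Pfkfb1, NRF2 KO on Con from -0.054 to 0.13 for Pfkfb1 and -0.12 to 0.13 for Pygl, NRF2 KO on MR from -0.16 to 0.0050 for Pygl, and the interaction from -0.22 to 0.016 for Pck1 and -0.22 to 0.034 for Pygl.

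The cause of these changes was not tested. Counts of list genes under all 24 mice, library size scaling, DESeq2, the clock covariate and without the library labelled WT_CON_7607 were chosen after seeing the data. No paired analysis was possible because replicate numbers are mouse numbers that no 2 groups share. The fit of only the groups compared has no form for the interaction.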
